A study of Mus musculus with 19 samples.

Results

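Expression of 9 genes of steroid hormone reception was followed in the mouse endometrium: the receptors Esr1, Esr2, Pgr and Nr3c1, the estrogen-induced cofactor Greb1, the receptor cochaperones Fkbp4 and Fkbp5, the coactivator Ncoa1 and the membrane progesterone receptor component Pgrmc1. They were chosen by name, and all 9 were found among the 49089 genes of the deposited counts. In the uterus, estradiol acts mainly through the estrogen receptor encoded by Esr1 and drives growth and secretion of the epithelium around ovulation. Progesterone, acting through the receptor encoded by Pgr, then stops epithelial growth and prepares the stroma for implantation. Unliganded steroid receptors are held in a complex of heat shock proteins in which the immunophilins FKBP52 (Fkbp4) and FKBP51 (Fkbp5) compete for the same place, and ligand-bound receptors recruit coactivators such as the one encoded by Ncoa1.

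RNA was sequenced from 19 samples of endometrium, scraped from the myometrium, of adult wild-type C57Bl/6 females. CONT comprised 3 samples (replicates 1, 2 and 4) from unmated females in estrus, around ovulation, and the other 4 groups comprised 4 samples each from females on day 3.5 pc, shortly before embryo attachment, after mating with Balb/c males. The males were intact for INT, and SVX, SVX_VAS and VAS followed mating with males altered by surgery. For these last 3 groups the name of the data column and the sample title give different surgeries (for example, columns named SVX are titled as vasectomised), so they are called here by their column names and no surgery is assigned to them. Each sample was a pool of animals, so the spread within a group is that between pools. INT differs from CONT in hormonal stage, in mating, in pregnancy and, by the methods, in time of day (midday against late evening), and these cannot be told apart. The methods give no separate collection time for SVX, SVX_VAS and VAS, so their time of day may also differ from that of CONT.

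Libraries held from 12661266 to 31781270 counts on genes. Values are given as CPM, the count of a gene relative to the TMM-scaled size of its library, and 3 counts, the limit that a count of 0 allows, correspond to between 0.108 and 0.236 CPM; this limit covers counting error only. VAS replicates 2 and 3 stood apart from the other 17 libraries: their 10 most abundant genes held between 1.07% and 1.11% of the counts, against 3.74% to 5.81%, and genes with under 2000 exon bases held between 5.72% and 5.82%, against 8.74% to 9.91%. Without these libraries, the calls of VAS against CONT and, through the shared estimate of the spread, those of the other groups were computed again. For the 9 genes and the related gene lists they are given where a call differed. Calls of cell type markers are given only with all libraries in the fit. Markers of stroma and epithelium were present in every group, and no marker of either list was at 0 throughout a group.

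Of the 9 genes, 8 reached at least 3 CPM in at least 3 libraries and were tested with edgeR's quasi-likelihood test, and Esr2 did not reach that level. A gene was called changed at a false discovery rate (FDR, adjusted over all 17222 genes tested) of 0.05 or less with a log2 fold change (logFC) of at least 0.58 in size. In INT against CONT, 1 of the 8 tested genes was called, and it fell (33.6% of all tested genes were called). The count was likewise 1 of 8 in SVX against CONT (all tested genes 41.6%) and 1 of 8 in SVX_VAS against CONT (all tested genes 38.6%), and the gene was Greb1 each time. In VAS against CONT, Greb1, Esr1 and Fkbp4 fell, making 3 of 8 (all tested genes 40.6%). With all libraries in the fit, the share called was thus below the share of all tested genes in the first 3 comparisons and near it in VAS. With VAS replicates 2 and 3 left out, the counts were 1 of 8 in INT (all tested genes 38.2%), 2 of 8 in SVX (46.0%) and 2 of 8 in SVX_VAS (43.3%). In VAS 0 of 8 was then called (36.3%), and 1 of 8 without VAS replicate 2 alone (38.5%) or VAS replicate 3 alone (36.2%). The 4 comparisons share the CONT libraries and are not independent of each other.

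With the FDR alone and no minimum change, the counts were 3 of 8 in INT against CONT (all tested genes 48.1%), 3 of 8 in SVX (57.1%), 3 of 8 in SVX_VAS (53.9%) and 5 of 8 in VAS (56.9%). The genes added were Nr3c1 and Ncoa1, both higher, in each of the 4 comparisons. With VAS replicates 2 and 3 left out of the fit, the counts were 6 of 8 in INT against CONT (all tested genes 61%), 7 of 8 in SVX (68.9%), 7 of 8 in SVX_VAS (66.1%) and 2 of 8 in VAS (52.3%). Esr1, Fkbp4 and Pgrmc1 were added in INT, SVX and SVX_VAS and Fkbp5 in SVX and SVX_VAS, with logFC within 0.01 of those of the full fit. All libraries of one group lay outside the range of the other for 6 of 8 genes in INT against CONT (62.3% of all tested genes), for 7 of 8 in SVX (70.9%), for 7 of 8 in SVX_VAS (67.5%) and for 2 of 8 in VAS (55%). The median logFC of the 8 genes was 0.25 in INT, 0.25 in SVX, 0.15 in SVX_VAS and -0.09 in VAS, beside -0.01, -0.01, -0.02 and -0.07 over all tested genes.

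**Figure D1:**
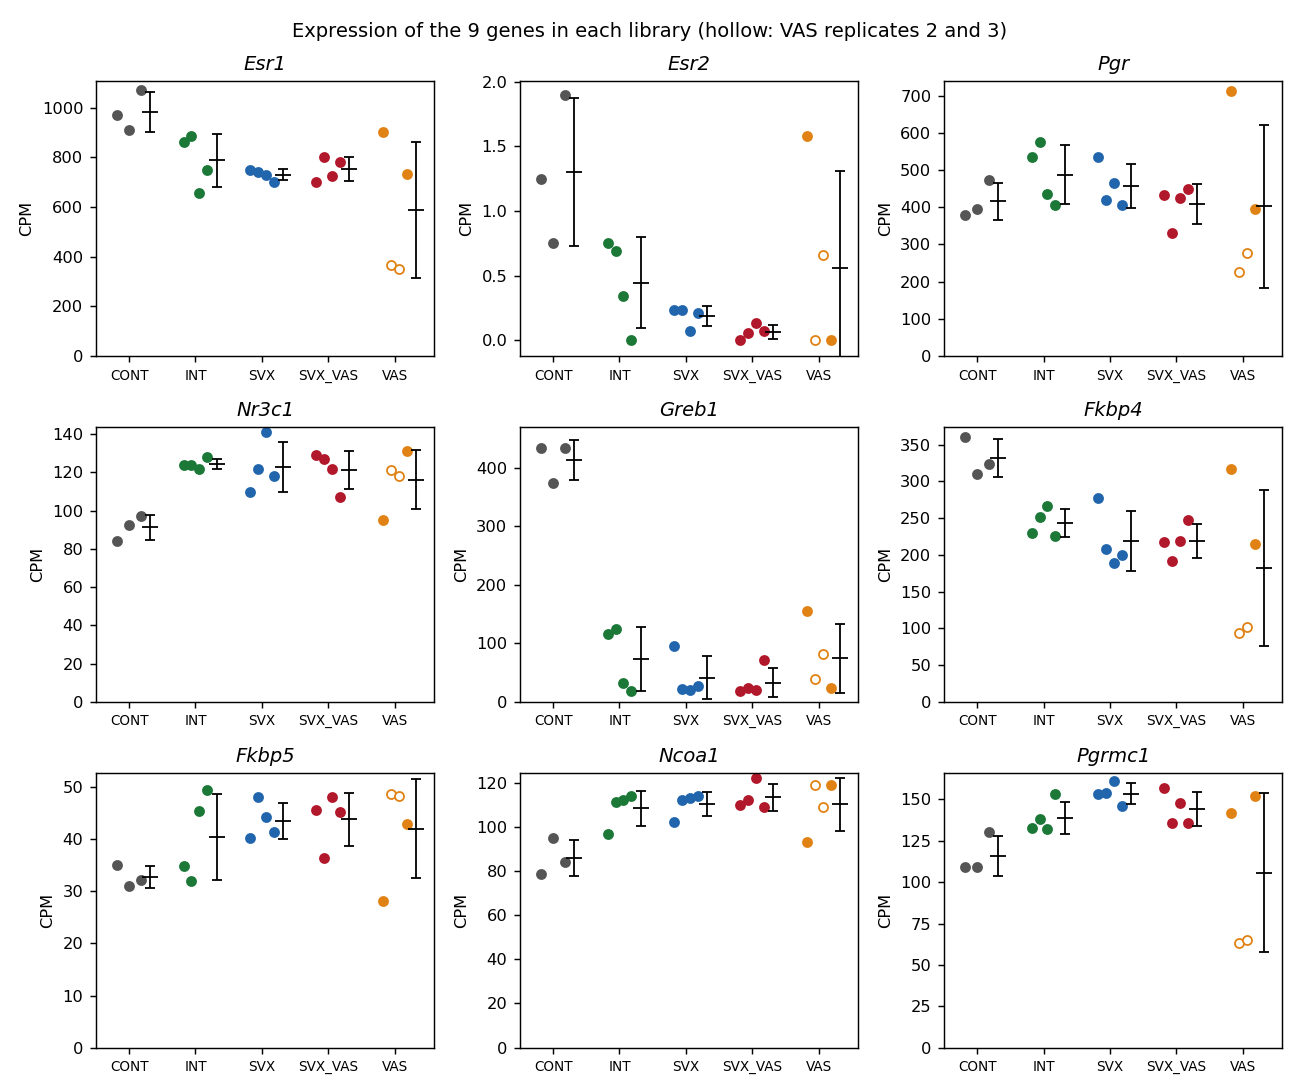
CPM of each of the 9 genes (linear axis, 1 panel per gene) in the 19 libraries by group, with points for libraries, hollow for VAS replicates 2 and 3, and bars for the mean ± SD. Greb1 lay at 374 to 433 CPM in CONT and at 155 CPM or less in every mated library, whereas Pgr overlapped between CONT and each mated group.

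Esr1 encodes the main uterine estrogen receptor (ENSMUSG00000019768.16, GRCm38 chr10:4611593-5005614, plus strand). It measured 971, 910 and 1070 CPM in CONT. It measured 863, 886, 655 and 751 CPM in INT, 749, 743, 728 and 701 CPM in SVX, and 702, 802, 725 and 783 CPM in SVX_VAS. All of these mated libraries lay below the lowest CONT library. Nonetheless the logFC against CONT was -0.32 in INT (SE 0.25, FDR 0.318), -0.43 in SVX (SE 0.25, FDR 0.156) and -0.39 in SVX_VAS (SE 0.25, FDR 0.21), none of which passed the test. With VAS replicates 2 and 3 left out of the fit, the logFC were the same and the FDR was 0.014 in INT, 0.00176 in SVX and 0.00389 in SVX_VAS, so that the FDR passed and the size did not.

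In VAS, Esr1 measured 901, 368, 349 and 733 CPM. Replicates 2 and 3, which stood apart, were the low pair, and the other pair averaged 817 CPM. Esr1 fell in VAS with a logFC of -0.74 (SE 0.25, FDR 0.0185), a 1.67-fold decrease. The call was lost without replicates 2 and 3 (logFC -0.27, FDR 0.0778), without VAS replicate 2 alone (-0.54, FDR 0.065), without VAS replicate 3 alone (-0.53, FDR 0.0647) and without CONT replicate 4 (-0.68, FDR 0.0594).

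Esr2 encodes the other nuclear estrogen receptor (ENSMUSG00000021055.13, chr12:76120419-76177259, minus strand), which is known chiefly from the ovary. It was close to the limit of detection, with 21, 21 and 25 counts in CONT (1.25, 0.754 and 1.9 CPM). It had 10, 11, 6 and 0 counts in INT, 3, 3, 1 and 3 in SVX, 0, 1, 2 and 1 in SVX_VAS, and 28, 0, 14 and 0 in VAS. The SVX and SVX_VAS libraries lay below all CONT libraries, INT reached the lowest CONT value (0.756 CPM in its highest library), and in VAS 1 of the 4 libraries lay inside the CONT range (1.58 CPM) and the others below it. When genes were kept by edgeR's filterByExpr, Esr2 was called lower in SVX (logFC -2.75, FDR 0.0437) and in SVX_VAS (logFC -4.28, FDR 0.00861). With no filter it was called in SVX_VAS (FDR 0.0113) and not in SVX (FDR 0.0583). At these counts the size of the fold depends on the small count added in the fit.

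Pgr encodes the nuclear progesterone receptor (ENSMUSG00000031870.16, chr9:8899833-8968611, plus strand). It measured 379, 395 and 473 CPM in CONT and 535, 575, 437 and 405 CPM in INT. In SVX it measured 536, 419, 465 and 405 CPM, and in SVX_VAS 434, 331, 424 and 450 CPM. Every mated group overlapped CONT. The logFC against CONT was 0.23 in INT (FDR 0.544), with a 95% interval from -0.37 to 0.84, which includes rises larger than the minimum change used for calling. It was 0.13 in SVX (FDR 0.722) and -0.02 in SVX_VAS (FDR 0.961).

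Pgr varied most within VAS, at 713, 226, 276 and 395 CPM. The highest and the lowest of all 19 libraries for this gene were both in that group. The logFC of VAS against CONT was -0.05 (FDR 0.894) with all libraries and 0.41 (FDR 0.126) without replicates 2 and 3.

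Nr3c1 encodes the glucocorticoid receptor (ENSMUSG00000024431.14, chr18:39410545-39491301, minus strand), which binds DNA elements of the same kind as the progesterone receptor. It measured 84.3, 92.6 and 97.0 CPM in CONT. It measured 124, 124, 122 and 128 CPM in INT, 110, 122, 141 and 118 CPM in SVX, 129, 127, 122 and 107 CPM in SVX_VAS, and 95, 121, 118 and 131 CPM in VAS. All mated libraries except VAS replicate 1 lay above the highest CONT library. The logFC was 0.45 in INT (SE 0.11, FDR 0.00239), 0.43 in SVX (FDR 0.00248), 0.41 in SVX_VAS (FDR 0.0037) and 0.35 in VAS (FDR 0.00971). The FDR passed in each case, while the change, 1.36-fold in INT, stayed under the minimum of 0.58 on the log2 scale. Without VAS replicates 2 and 3 the FDR of VAS no longer passed (logFC 0.31, FDR 0.0563).

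**Figure D2:**
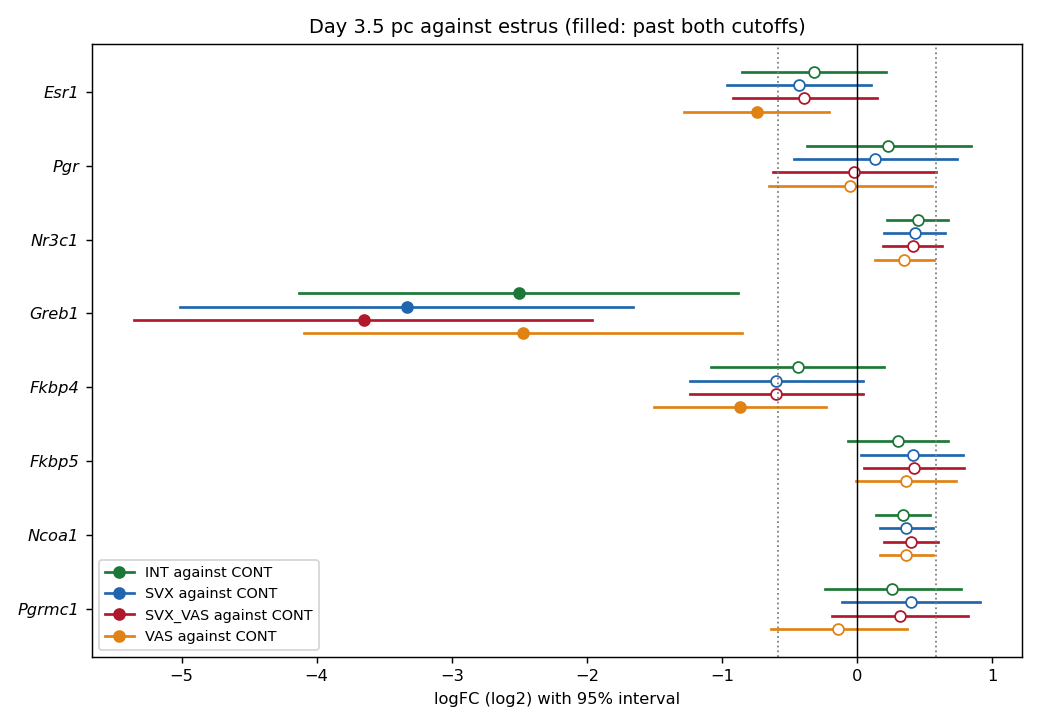
logFC (log2) of the 8 tested genes in each day 3.5 pc group against CONT, with lines for 95% intervals, filled points for genes past both cutoffs and dotted lines at 0.58 in either direction. Greb1 lay between -2.47 and -3.65, and Nr3c1 and Ncoa1 lay between 0.34 and 0.45 with intervals above 0 in each comparison.

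Greb1, a gene that estrogen induces through its receptor and whose product binds that receptor as a cofactor (ENSMUSG00000036523.16, chr12:16670615-16800886, minus strand), fell in all 4 mated groups. It measured 433, 374 and 433 CPM in CONT. It measured 115, 125, 31.9 and 19 CPM in INT, 95.7, 21.3, 20.5 and 26.6 CPM in SVX, 18.5, 22.8, 19.4 and 71.1 CPM in SVX_VAS, and 155, 38.9, 81.7 and 23.1 CPM in VAS. No mated library reached the CONT range, and within each mated group the libraries differed several-fold.

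The logFC of Greb1 against CONT was -2.5 in INT (SE 0.77, FDR 0.0132), a 5.67-fold decrease. It was -3.33 in SVX (SE 0.79, FDR 0.00185), a 10.1-fold decrease, and -3.65 in SVX_VAS (SE 0.8, FDR 0.00116), a 12.6-fold decrease. It was -2.47 in VAS (SE 0.77, FDR 0.0117), a 5.54-fold decrease, and -2.22 (FDR 0.0752) without VAS replicates 2 and 3, where the call was lost. Leaving out any single library of the groups compared kept the call in each comparison, with logFC from -2.9 to -2.19 in INT, -4.18 to -3.11 in SVX, -4.35 to -3.45 in SVX_VAS and -3.11 to -2.17 in VAS. The decrease was 18.1-fold in SVX without its replicate 1, 20.4-fold in SVX_VAS without its replicate 4 and 8.61-fold in VAS without its replicate 1.

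The promoters of Greb1 are shown because it was the gene called in all 4 comparisons. RefSeq windows (GRCm38.p6) running from 250 bases before to 50 bases after a gene start were found for 8 of the 9 genes, 10 windows in all. Capitals mark the letters of a match, described next, and both sequences read 5′ to 3′ along the minus strand.
Greb1 upstream start, chr12:16800837-16801136: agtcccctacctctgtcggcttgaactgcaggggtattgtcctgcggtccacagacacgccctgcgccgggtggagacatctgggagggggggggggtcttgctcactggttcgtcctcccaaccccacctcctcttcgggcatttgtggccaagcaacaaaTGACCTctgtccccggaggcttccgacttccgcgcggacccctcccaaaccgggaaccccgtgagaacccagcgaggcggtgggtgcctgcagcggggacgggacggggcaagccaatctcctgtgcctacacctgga
Greb1 downstream start, chr12:16757190-16757489: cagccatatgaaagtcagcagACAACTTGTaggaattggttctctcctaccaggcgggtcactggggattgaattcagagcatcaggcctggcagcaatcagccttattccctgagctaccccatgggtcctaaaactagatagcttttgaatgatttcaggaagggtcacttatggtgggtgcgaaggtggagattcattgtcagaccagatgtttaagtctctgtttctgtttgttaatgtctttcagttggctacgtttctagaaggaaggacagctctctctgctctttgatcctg

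The upstream window held the letters TGACCT, the other-strand form of the estrogen receptor half-site AGGTCA, with the first base at position -88 from the start. The half-site was found in 1 of the 10 windows and in 16.3% of all 32851 windows of the table. The downstream window held a match to ACANNNTGT, the core shared by glucocorticoid and progesterone receptor elements, at position -229, which was found in 1 of the 10 windows and in 6.85% of all windows. The whole estrogen response element, GGTCANNNTGACC, whose arms can also be read as half-sites, was found in 0 of the 10 windows and in 0.07% of all windows. Both strands were searched. A match describes the letters of the window only.

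Fkbp4 encodes FKBP52, a cochaperone that favours progesterone receptor activity (ENSMUSG00000030357.10, chr6:128429735-128438677, minus strand). It measured 360, 310 and 324 CPM in CONT, 230, 251, 267 and 226 CPM in INT, 278, 208, 189 and 200 CPM in SVX, and 217, 192, 219 and 248 CPM in SVX_VAS. These 3 mated groups lay entirely below CONT. The logFC was -0.44 in INT (SE 0.3, FDR 0.244), -0.6 in SVX (SE 0.3, FDR 0.103) and -0.6 in SVX_VAS (SE 0.3, FDR 0.108), and none passed the test with all libraries in the fit. Without VAS replicates 2 and 3 in the fit, the same differences passed in SVX (logFC -0.6, FDR 0.00194) and in SVX_VAS (logFC -0.6, FDR 0.00215).

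In VAS, Fkbp4 measured 317, 94.1, 102 and 215 CPM, with the low pair again replicates 2 and 3 and with replicate 1 inside the CONT range. It fell in VAS with a logFC of -0.87 (SE 0.3, FDR 0.0221). The call was lost without replicates 2 and 3 (-0.32, FDR 0.134), without VAS replicate 2 (-0.62, FDR 0.0657), without VAS replicate 3 (-0.63, FDR 0.0769) and without CONT replicate 1 (-0.8, FDR 0.0671).

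Fkbp5 encodes FKBP51, the paralog of FKBP52, and is itself induced by glucocorticoids and progesterone (ENSMUSG00000024222.16, chr17:28399095-28517524, minus strand). It measured 35.1, 31.0 and 32.2 CPM in CONT and 34.8, 32.0, 45.4 and 49.4 CPM in INT. It measured 40.3, 48.0, 44.2 and 41.3 CPM in SVX, 45.5, 36.4, 48.0 and 45.3 CPM in SVX_VAS, and 28.2, 48.6, 48.3 and 43.0 CPM in VAS. SVX and SVX_VAS lay wholly above CONT, and INT and VAS overlapped it. The logFC was 0.3 in INT (SE 0.18, FDR 0.172), 0.41 in SVX (FDR 0.0588), 0.42 in SVX_VAS (FDR 0.0548) and 0.36 in VAS (FDR 0.0918), and none passed the test. With VAS replicates 2 and 3 left out, the FDR was 0.0369 in SVX and 0.0347 in SVX_VAS at the same logFC, and VAS had a logFC of 0.12 (FDR 0.631).

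Ncoa1 encodes a p160 coactivator of nuclear receptors (ENSMUSG00000020647.9, chr12:4247363-4477182, minus strand). It measured 78.5, 94.7 and 84.1 CPM in CONT and 96.6, 111, 112 and 114 CPM in INT. It measured 102, 112, 113 and 114 CPM in SVX, 110, 112, 122 and 109 CPM in SVX_VAS, and 93.2, 119, 109 and 119 CPM in VAS. As with Nr3c1, VAS replicate 1 was the one mated library inside the CONT range. The logFC was 0.34 in INT (SE 0.09, FDR 0.00642), 0.36 in SVX (FDR 0.00313), 0.4 in SVX_VAS (FDR 0.0018) and 0.36 in VAS (FDR 0.00347, and 0.0314 without VAS replicates 2 and 3), so that the FDR passed and the size did not.

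Pgrmc1 encodes a membrane heme-binding protein linked to progesterone signalling (ENSMUSG00000006373.10, chrX:36598206-36606079, plus strand). It measured 109, 109 and 130 CPM in CONT and 133, 138, 132 and 153 CPM in INT. It measured 153, 154, 161 and 146 CPM in SVX and 157, 136, 148 and 136 CPM in SVX_VAS, and all of these mated libraries lay above CONT. In VAS it measured 142, 63.2, 65.2 and 152 CPM, with replicates 2 and 3 below CONT and the other pair above it. The logFC was 0.26 in INT (SE 0.24, FDR 0.393), 0.4 in SVX (FDR 0.166), 0.32 in SVX_VAS (FDR 0.284) and -0.14 in VAS (FDR 0.636). Without VAS replicates 2 and 3 in the fit, the FDR was 0.0115 in INT, 0.000494 in SVX and 0.00329 in SVX_VAS at the same logFC, and the logFC of VAS was 0.34 (FDR 0.00826), all higher and below the minimum size.

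Between genes, levels were compared as CPM per kilobase of exon. In CONT the order was Fkbp4 at 119 ± 9.32 (SD, n = 3), Esr1 at 72.1 ± 5.95, Pgrmc1 at 62.4 ± 6.68, Pgr at 48.6 ± 5.93, Greb1 at 43.2 ± 3.53, Nr3c1 at 12.3 ± 0.871, Ncoa1 at 11.7 ± 1.12, Fkbp5 at 5.15 ± 0.327 and Esr2 at 0.386 ± 0.17. The ranges of Esr1 and Pgrmc1, of Pgr and Greb1, and of Nr3c1 and Ncoa1 overlapped, and the other neighbours were separate. Esr1 was thus far above Esr2, and Fkbp4 above Fkbp5, in every CONT library.

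In INT the order was Fkbp4 at 87.1 ± 6.84 CPM per kilobase (SD, n = 4), Pgrmc1 at 74.9 ± 5.22, Esr1 at 57.7 ± 7.81, Pgr at 57.1 ± 9.41, Nr3c1 at 16.8 ± 0.37, Ncoa1 at 14.8 ± 1.1, Greb1 at 7.61 ± 5.76, Fkbp5 at 6.35 ± 1.31 and Esr2 at 0.133 ± 0.104. Neighbours that overlapped were Fkbp4 and Pgrmc1, Esr1 and Pgr, and Greb1 and Fkbp5. Greb1 moved from rank 5 among the 9 genes in CONT to rank 7 in INT and VAS and to rank 8 in SVX and SVX_VAS.

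Ratios of 2 genes within a library do not depend on the scaling of library sizes. The ratio of Fkbp4 to Fkbp5 per kilobase was 23.4, 22.7 and 22.9 in CONT. It was 15.0, 17.8, 13.4 and 10.4 in INT, 15.7, 9.89, 9.76 and 11 in SVX, and 10.9, 12.0, 10.4 and 12.5 in SVX_VAS, all below CONT. In VAS it was 25.6, 4.41, 4.81 and 11.4, with replicate 1 above CONT.

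The ratio of Pgr to Esr1 was 0.623, 0.694 and 0.706 in CONT and 0.992, 1.04, 1.07 and 0.861 in INT. It averaged 0.996 ± 0.109 in SVX, 0.875 ± 0.147 in SVX_VAS and 1.09 ± 0.201 in VAS (SD, n = 4 each). INT, SVX and VAS lay above CONT, replicates 2 and 3 of VAS included, and SVX_VAS replicate 2, at 0.66, lay inside the CONT range. The ratio of Esr1 to Nr3c1 was 6.26, 5.34 and 6.0 in CONT and 3.79, 3.88, 2.93 and 3.19 in INT, and averaged 3.26 ± 0.373 in SVX and 3.4 ± 0.43 in SVX_VAS. In VAS it was 5.16, 1.65, 1.61 and 3.03, lowest in replicates 2 and 3. The ratios are given as descriptions, with no test.

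**Figure D3:**
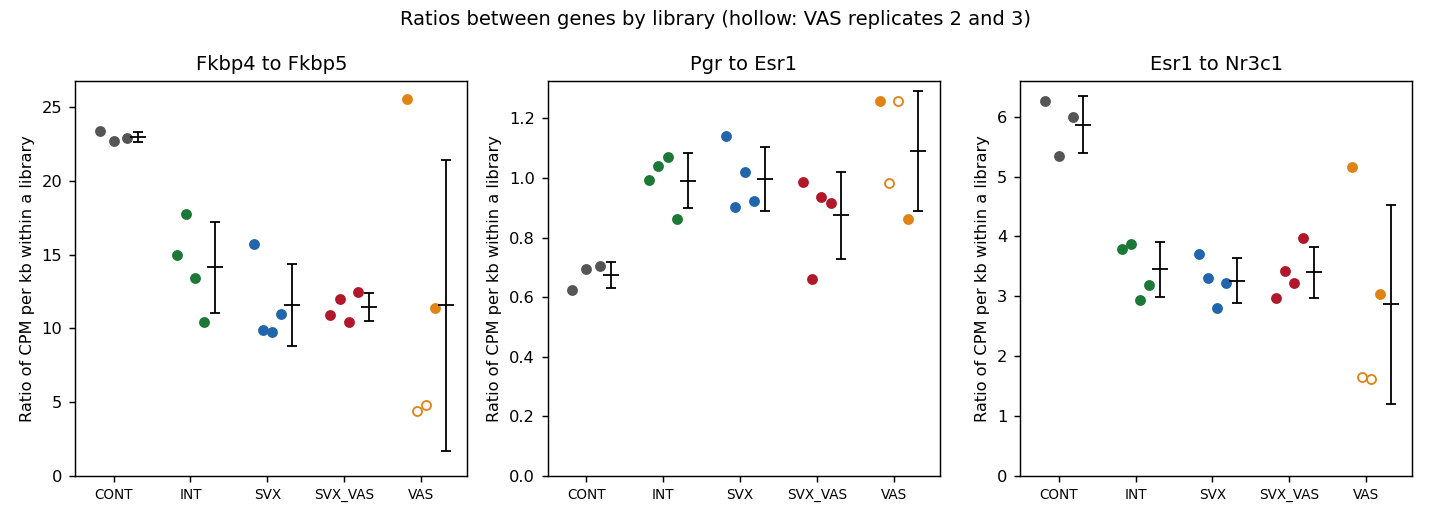
Ratios of CPM per kilobase of exon between 2 genes within a library (linear axes, 1 panel per ratio), with points for libraries, hollow for VAS replicates 2 and 3, and bars for the mean ± SD of a group. The ratio of Fkbp4 to Fkbp5 averaged 23.0 in CONT and 11.4 to 14.1 in the mated groups, and that of Pgr to Esr1 averaged 0.674 in CONT and 0.875 to 1.09 in the mated groups.

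Between mated groups, 0 of the 8 tested genes was called in each of the 6 comparisons by edgeR (0% of all tested genes in each). At an unadjusted p under 0.05, 1 of the 8 genes passed in VAS against SVX, Pgrmc1 (logFC -0.54, FDR 0.305), and 0 in the other 5. Over all tested genes, between 240 (SVX_VAS against SVX) and 2651 (VAS against SVX) had an unadjusted p under 0.05. DESeq2 called between 0 and 27 genes in the 6 comparisons. limma-voom called 0 in the 3 comparisons without VAS and between 1656 and 1807 in the 3 with VAS. With sample quality weights limma-voom called 4 of the 8 genes, Esr1, Fkbp4, Pgr and Pgrmc1, in VAS against each other mated group, where that fit called 27.5% (INT), 27% (SVX) and 27% (SVX_VAS) of all tested genes. Without VAS replicates 2 and 3, edgeR called 0 of all tested genes in the 6 comparisons. The intervals of Greb1 were wide (in SVX_VAS against INT, logFC -1.15, 95% interval from -2.66 to 0.36), and that interval includes a decrease of several-fold.

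The libraries of a mated group differed several-fold in Greb1, and other estrogen target genes were read beside it. Of 6 estrogen target genes (Ltf, C3, Muc1, Lcn2, Sprr2f and Igf1), the median log2 CPM was 9.9, 9.87 and 9.99 in CONT and 9.95, 8.94, 4.57 and 5.12 in INT. In INT the replicates with the higher target median, 1 and 2, were those with the higher Greb1, 115 and 125 CPM. The median was 6.45, 4.82, 4.37 and 4.33 in SVX, where replicate 1 was likewise the one with high Greb1, and 8.59, 7.18, 6.42 and 4.8 in VAS. In SVX_VAS it was 4.3, 9.9, 4.53 and 7.45, and replicate 2, with the highest target median, had only 22.8 CPM of Greb1. The summed level of epithelial markers was 2420, 2050, 804 and 1160 CPM in INT and 1140, 971, 894 and 871 CPM in SVX. It was 1020, 2110, 1050 and 1400 CPM in SVX_VAS and 2160, 731, 592 and 955 CPM in VAS. The part of the epithelium in these differences between libraries was not tested.

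**Figure D4:**
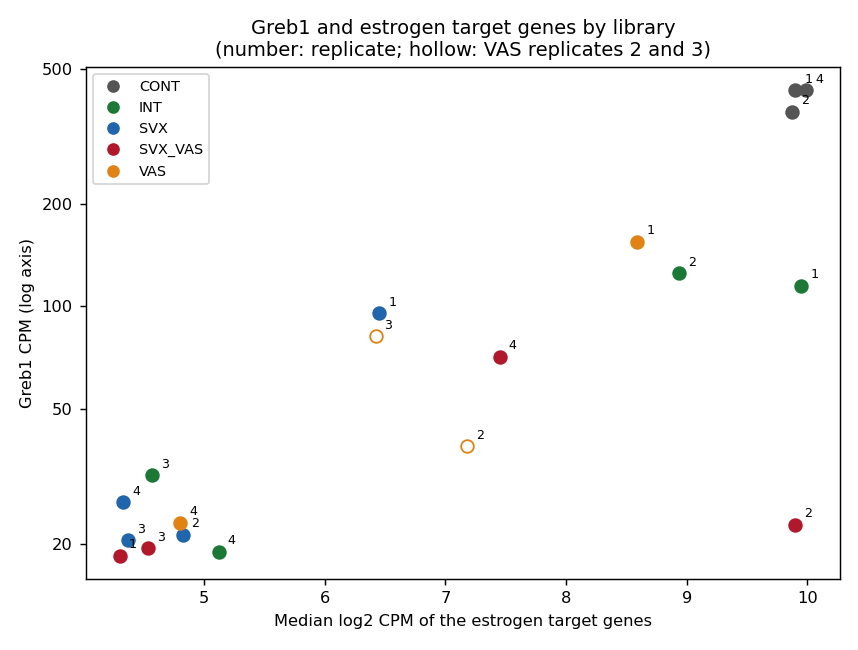
CPM of Greb1 (log axis) against the median log2 CPM of 6 estrogen target genes in each of the 19 libraries, coloured by group and numbered by replicate, hollow for VAS replicates 2 and 3. The CONT libraries sit at 374 CPM or more, INT replicate 1 has a target median like theirs with 115 CPM of Greb1, and SVX_VAS replicate 2 has 22.8 CPM at a target median of 9.9.

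Of the 6 estrogen targets, INT against CONT had 1 higher and 1 lower call, near the share of all tested genes (33.6%), with a median logFC of -1.87. Igf1, a growth factor, rose with a logFC of 2.71 (FDR 1.01e-05), from 126 to 823 CPM. Muc1, an epithelial surface mucin, fell with a logFC of -2.25 (FDR 0.0312), from 424 to 89.3 CPM. In SVX against CONT, 5 of the 6 fell and Igf1 rose (all tested genes 41.6%), with a median logFC of -4.92. In SVX_VAS the counts were 1 higher and 1 lower (all tested genes 38.6%), and in VAS 1 higher and 2 lower (40.6%). Muc1 was lower in both, and C3, a complement component, was also lower in VAS (logFC -3.7, FDR 0.0159). Without VAS replicates 2 and 3, neither passed in VAS (Muc1 -2.49, FDR 0.0702, and C3 -3.35, FDR 0.0979). C3 was named after its values were seen. The count of 2 in INT was 1 when any single CONT library, INT replicate 3 or INT replicate 4 was left out and with glmTreat, and 4 with limma-voom quality weights.

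All 9 progesterone target genes rose in INT against CONT (all tested genes 33.6%), with a median logFC of 4.63. The smallest rise was that of Il13ra2, a decoy receptor for interleukin 13, at 2.13 (FDR 0.000364). The largest was that of Acod1, which makes itaconate, at 8.31 (FDR 4.64e-06), from 0.308 to 92.0 CPM. Calca, Areg, Acod1, Cyp26a1 and Ihh averaged 0.0612, 0.166, 0.308, 0.713 and 1.64 CPM in CONT and passed the filter on low counts through mated libraries. For these genes the filter favoured a rise, and the size of the fold depends on the small count added in the fit. The count of the list is therefore a description only. The same list had 9 calls in SVX (all tested genes 41.6%) and 8 in SVX_VAS (38.6%), where Cyp26a1 did not pass (logFC 2.71, FDR 0.171). It had 9 calls in VAS (40.6%), with or without its replicates 2 and 3. This stood beside a logFC of 0.23 for Pgr itself in INT, which did not pass. Of 12 glucocorticoid target genes, 4 rose and 2 fell in INT (all tested genes 33.6%), with a median logFC of 0.38. The 12 ranged from Ddit4 at -1.86 (FDR 4.9e-05), a stress-induced inhibitor of mTOR signalling, to the metallothionein Mt2 at 1.96 (FDR 0.000249). The other calls, named after their values were seen, were Zbtb16 (1.57, FDR 0.0016), Klf9 (1.5, FDR 7.64e-05) and Klf15 (0.81, FDR 0.0146), which rose, and Pdk4 (-1.46, FDR 0.000522), which fell. In SVX (all tested genes 41.6%) and in SVX_VAS (38.6%) 6 rose and 3 fell. In VAS 5 rose and 4 fell (40.6%), and 4 and 3 without its replicates 2 and 3 (36.3%).

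Among other steroid and estrogen-related receptors, Esrra, an orphan receptor that controls mitochondrial genes, fell in INT against CONT with a logFC of -1.18 (SE 0.2, FDR 0.000164), from 66.2 to 29.2 CPM. It also fell in SVX (-1.51, FDR 1.31e-05), SVX_VAS (-1.2, FDR 0.000111) and VAS (-1.18, FDR 0.000126). The mineralocorticoid receptor Nr3c2 (0.74, FDR 0.00648) and the G protein-coupled estrogen receptor Gper1 (0.76, FDR 0.0146), both named after their values were seen, rose in INT. Gper1 did not pass in VAS (0.53, FDR 0.0679), and passed there without VAS replicates 2 and 3 (0.8, FDR 0.0124).

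Of 7 membrane progesterone receptors and relatives of Pgrmc1, 5 were tested, and 1 rose and 2 fell in INT (all tested genes 33.6%). The count called in INT was 1 with glmTreat and 5 with no cutoff on the logFC. Paqr7 rose with a logFC of 0.96 (FDR 0.00692) and Paqr5 fell with a logFC of -1.66 (FDR 0.000989), both of them membrane progesterone receptors. Paqr8, a further member of that family named after its values were seen, also fell (-0.76, FDR 0.00561). In SVX (all tested genes 41.6%) and in SVX_VAS (38.6%), Paqr7 and Pgrmc2, the paralog of Pgrmc1, rose and Paqr5 fell. In VAS (all tested genes 40.6%), Paqr7 rose and Paqr5 fell, and without its replicates 2 and 3 Paqr8 fell as well (-0.67, FDR 0.0341).

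Of 19 other coactivators, 0 rose and 2 fell in INT, where 33.6% of all tested genes were called, with a median logFC of -0.06. Ncoa7 fell with a logFC of -1.37 (FDR 0.013), from 462 to 179 CPM, and Ppargc1b, named after its values were seen, with -1.1 (FDR 0.0328). Sra1, which acts as an RNA coactivator, was the highest at 0.55 (FDR 0.000382), under the minimum size. Of 15 corepressors, 13 were tested and 1 fell, the prohibitin Phb (-0.65, FDR 0.0105), while the highest was Tbl1x (0.17, FDR 0.137) and the median was -0.02. The coactivator count was 0 with glmTreat and 1 without CONT replicate 1 or 2 or INT replicate 3 or 4, and the corepressor count was 0 without CONT replicate 1 or INT replicate 4, 2 without CONT replicate 2 or INT replicate 2 and 4 without INT replicate 1. The call of Phb was lost with upper quartile scaling, limma-voom quality weights or glmTreat, and the corepressor count was 3 with no filter on low counts or filterByExpr. In SVX 4 corepressors fell, Nrip1, Tbl1xr1, Phb and Lcor, in SVX_VAS 2, Tbl1xr1 and Phb, and in VAS 3, Nrip1, Tbl1xr1 and Phb (without its replicates 2 and 3 the single call was Lcor), and none rose. These except Phb were named after their values were seen. Of all tested genes, 41.6% were called in SVX, 38.6% in SVX_VAS and 40.6% in VAS. Of the coactivators, 1 rose and 2 fell in SVX and in SVX_VAS, Sra1 being the one higher, and 0 rose and 1 fell in VAS, Ncoa7.

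Of 15 receptor chaperones and cochaperones beside Fkbp4 and Fkbp5, edgeR called 0 in INT (all tested genes 33.6%), with a median logFC of -0.25. By the FDR alone 1 passed (all tested genes 48.1%), the cyclophilin Ppid (0.34, FDR 0.0319). The lowest was St13, a cochaperone of HSP70 (-0.53, FDR 0.0985). Without VAS replicates 2 and 3 in the fit, more passed by the FDR alone in INT (all tested genes 61%). These were Ppid, higher (FDR 0.00475), and St13 (-0.53, FDR 0.00275), Bag1 (-0.39, FDR 0.00326) and Hspa8 (-0.4, FDR 0.0099), lower. Ahsa1 (-0.39, FDR 0.0341) and Hsp90ab1 (-0.28, FDR 0.0355) were also lower. All but Ppid and St13 were named after their values were seen. St13 was the single call, lower, in SVX (all tested genes 41.6%) and in SVX_VAS (38.6%). In VAS 3 passed, lower (40.6%), St13, Ahsa1 and Bag1, the last 2 named after their values were seen. The summed level of the list was 976 and 1010 CPM in VAS replicates 2 and 3 and 3630 and 3040 CPM in the other pair, against 3340 to 4340 CPM in CONT, and without replicates 2 and 3 none of the 3 genes was called (St13 -0.36, FDR 0.066, Ahsa1 -0.3, FDR 0.178, and Bag1 -0.43, FDR 0.00712). Of 8 partner transcription factors of the receptors in the uterus, 3 rose and 1 fell in INT (all tested genes 33.6%). Hand2, which acts in the stroma downstream of progesterone, rose with a logFC of 2.27 (FDR 0.000216), and Cebpb, which estrogen induces, fell with -1.24 (FDR 0.00739). The other 2, named after their values were seen, were the gland factor Foxa2 (2.0, FDR 0.000219) and Nr2f2 (1.09, FDR 0.000562), which rose. In SVX (all tested genes 41.6%) and in SVX_VAS (38.6%) 4 rose and 1 fell, and in VAS (40.6%) 3 rose and 1 fell.

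No exon of the 9 genes overlapped an exon of another gene. Among the related genes named, exons of Nr3c2, Esrra, Sra1, Hand2, Cebpb, Nr2f2 and Mt2 overlap a gene on the opposite strand, and since the sources used here give no strand setting for the counting, reads of the pairs may not be told apart.

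**Figure D5:**
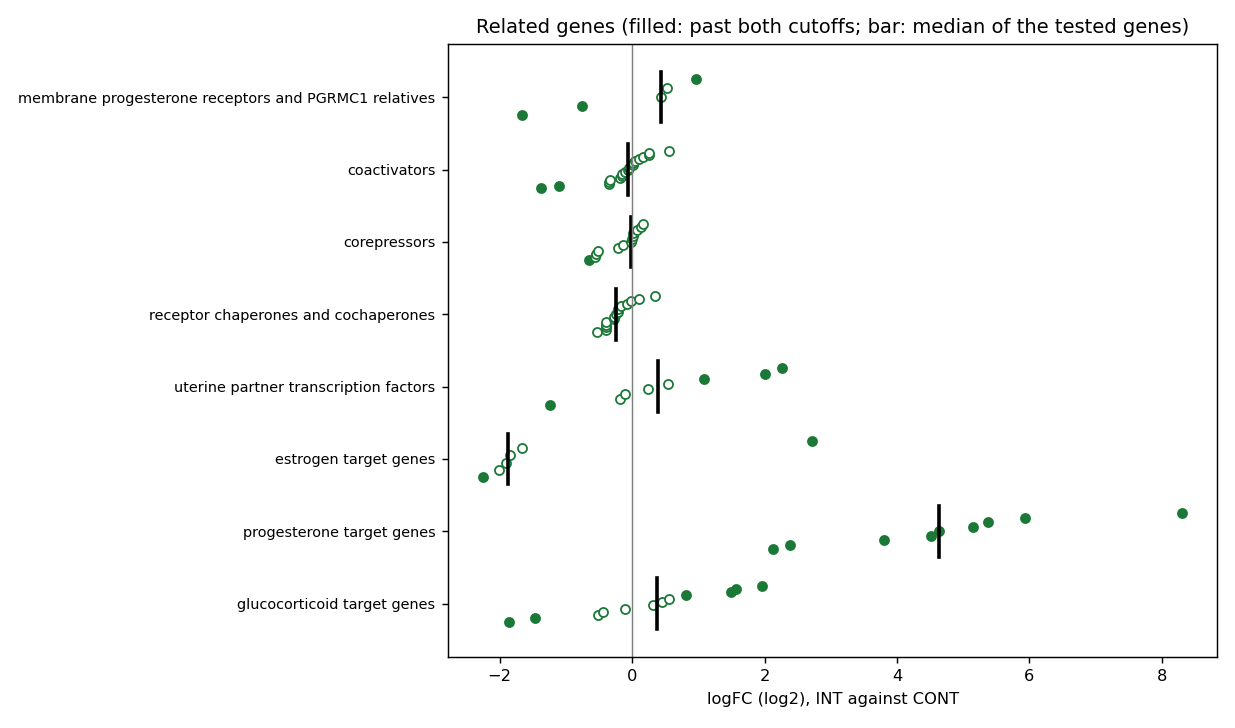
logFC (log2) in INT against CONT of the tested genes of 8 related lists, with filled points for genes past both cutoffs and bars for the median of a list. All 9 progesterone targets lay above 0 (median 4.63), coactivators and corepressors lay around 0 (medians -0.06 and -0.02), and 5 of the 6 estrogen targets lay below 0. Some progesterone targets, low in CONT, passed the filter on low counts through mated libraries.

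Markers of cell types moved between the same groups. Of all tested genes, 33.6% were called in INT against CONT, 41.6% in SVX, 38.6% in SVX_VAS and 40.6% in VAS. In INT against CONT, 5 of 8 epithelial markers fell, and their summed level was 3420 to 4610 CPM in CONT, 804 to 2420 CPM in INT, 871 to 1140 CPM in SVX, 1020 to 2110 CPM in SVX_VAS and 592 to 2160 CPM in VAS. Of 8 stromal markers 4 rose, with sums of 6300 to 6800 CPM in CONT and 8150 to 10900 CPM in INT, and from 2100 to 10600 CPM in VAS. All 6 endothelial markers rose, from sums of 164 to 243 CPM to 627 to 965 CPM, and 2 of 8 smooth muscle markers rose, from 484 to 967 CPM to 993 to 1760 CPM. Markers of glandular epithelium went the other way from those of the whole epithelium, with 4 of 5 higher (median logFC 5.34, sums of 4.64 to 16 CPM in CONT and 79.8 to 457 CPM in INT). Of the T and NK cell markers 5 of 5 tested were higher, of the red blood cell markers 4 of 5 and of the macrophage markers 4 of 6, with Cd68, named after its values were seen, lower (-1.22, FDR 0.0233). Neutrophil marker sums were 63.6 and 88 CPM in VAS replicates 2 and 3 and 3.51 to 28.2 CPM in the other libraries. Of 6 neutrophil markers only 3 were tested, since S100a8, S100a9 and Cxcr2 did not pass the filter on low counts. In VAS 2 of these 3 were called higher, Csf3r (3.22, FDR 3.59e-05) and Mmp9 (2.74, FDR 0.000204), and Retnlg (0.72) was not. All were named after their values were seen. The marker calls of VAS are given only with its replicates 2 and 3 in the fit. Of 6 proliferation markers, 2 were lower in SVX, 4 in SVX_VAS and 1 in VAS. Of the oviduct and ovary markers, 2 of 3 tested were higher in each mated group, Ovgp1 and Inha, also named after their values were seen. The T and NK cell markers Cd3e, Cd3g, Klrb1c and Nkg7 averaged 0.377, 0.331, 2.72 and 2.62 CPM in CONT and passed the filter on low counts through mated libraries. Prss28, Cxcl15, Spink1, Hba-a2, Hbb-bt, Csf3r, Mmp9 and Inha were likewise under 3 CPM on average in CONT. For these markers the filter favoured a higher call, so their counts are descriptions only. In bulk tissue, fewer cells of a type and less RNA per cell cannot be told apart, and the part of these shifts in the values of the 9 genes was not tested.

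Over the 19 libraries, the genes whose log2 CPM were most like those of a receptor or cofactor were ranked by Pearson's r, as a description that follows the differences between groups and between libraries. For Greb1 they were Gm30414 (r = 0.99), Tmem200b (0.97) and Slc16a6 (0.97), and the values over 17 libraries, without VAS replicates 2 and 3, were 0.99, 0.97 and 0.98. Nr3c1 was most like Gm37311, Tia1 and Jmy (0.95 each, and 0.95 to 0.96 over 17 libraries). Ncoa1 was most like Tnrc6c (0.97), Ctsf and Ank3 (0.96 each), and Fkbp5 was most like Slc35d1 (0.91), Cyth3 and Ryr2 (0.9 each). Over 17 libraries the values of Ncoa1 were 0.96 to 0.97 and those of Fkbp5 0.88 to 0.9.

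For the other 4 tested genes r was lower without VAS replicates 2 and 3. Pgr was most like Col1a2, a stromal collagen chain (r = 0.89, and 0.77 over 17 libraries), March5 (0.89 and 0.74) and Vps26b (0.88 and 0.75). Fkbp4 was most like Hnrnpab, Eif4g1 and Cct7, which act in RNA binding, translation and protein folding (0.99 each, and 0.96 each over 17 libraries). Pgrmc1 was most like Gm15910 (0.99 and 0.91), Gm37664 (0.98 and 0.92) and Nron (0.98 and 0.89). Esr1 was most like 4933400A11Rik (0.99 and 0.96), Gm26714 and Gm26642 (0.99 and 0.95 each). Among the similar genes, exons of Slc16a6, Vps26b, Hnrnpab, Cct7, Gm37664, Gm26714 and Gm26642 overlap a gene on the opposite strand. With no strand setting given, reads of these pairs may not be told apart.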

How the data were processed

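Endometrial RNA of 19 pooled samples in 5 groups was sequenced from both ends after preparation with the TruSeq Stranded total RNA kit. Per the labels and the methods, the authors removed adapters, aligned reads to GRCm38 with STAR, counted them with featureCounts and deposited raw counts per gene, with no strand setting stated. Library totals were 12661266 to 31781270 counts.

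Genes were tested with the quasi-likelihood F test of edgeR 4.0.16 (TMM, two-sided) under R 4.3.3. All 5 groups entered 1 fit with no replicate block. A gene entered it if 3 or more of the 19 libraries had 3 CPM or more (17222 genes). Calls required an FDR (Benjamini-Hochberg, over these genes) not above 0.05 together with a logFC not under 0.58 in size. The SE is the logFC divided by the square root of its F value. CPM were computed with the TMM factors, and for log2 CPM a prior count of 2 was added. The fit was tested on simulated data. The 9 genes, the related lists and the marker lists (epithelium, stroma, endothelium and smooth muscle, with others used only as a check) were chosen with earlier results of these data known. From each related list, the genes with the lowest and highest logFC in INT against CONT are named, and for each tested gene the 3 most similar. A result of 1 list is not reported here. Alternatives were other scalings, DESeq2 1.42.0, limma-voom (limma 3.58.1) with and without sample quality weights, glmTreat, other filters and cutoffs, fewer groups, a replicate block and libraries left out. The correlations over 17 libraries, and the related genes and FDR-only counts without VAS replicates 2 and 3, were chosen after seeing the data. Motifs and figures were computed with Python 3.11.15.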

Additional observations from a re-analysis of the deposited data

Results flagged for a closer look

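In groups of 4 libraries, a value was marked where the gap from the highest or lowest library to its nearest neighbour was over 0.83 of the range of the group. In the 36 groups searched this was found 4 times, where chance gives about 1.8. Greb1 in SVX replicate 1 measured 95.7 CPM, while the other 3 libraries measured 20.5 to 26.6 CPM. Greb1 in SVX_VAS replicate 4 measured 71.1 CPM, while the others measured 18.5 to 22.8 CPM. Ncoa1 in SVX replicate 1 measured 102 CPM, while the others measured 112 to 114 CPM. Esr2 in SVX replicate 3 measured 0.0731 CPM, a single count, while the others measured 0.215 to 0.236 CPM, 3 counts each.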

How the results depend on the processing

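Of the counts of the 9 genes called, 173 were within 1.5 times the main count under the alternatives and 23 were not. The count of INT against CONT (1) moved to 3 with no cutoff on the logFC. That of SVX against CONT (1) was 3 with no cutoff and 2 with upper quartile scaling (Nr3c1 added, at 0.6, which is 0.43 relative to the median of all genes, as with TMM), quality weights or without VAS replicates 2 and 3 (Fkbp4 added) and filterByExpr (Esr2 added). That of SVX_VAS against CONT (1) was 3 with no cutoff and 2 with no filter or filterByExpr (Esr2 added) and with only the groups compared or without VAS replicates 2 and 3 (Fkbp4 added). That of VAS against CONT (3) was 5 with quality weights or no cutoff, 1 with glmTreat or only the groups compared, 0 without VAS replicates 2 and 3, and 1 to 3 with single libraries left out. Between mated groups (0), quality weights gave 4 in VAS against INT, VAS against SVX and VAS against SVX_VAS. With single libraries left out, VAS against INT ranged from 0 to 2 (Fkbp4 and Pgr without VAS replicate 1, where 3.35% of all tested genes were called) and VAS against SVX from 0 to 1 (Pgrmc1 without VAS replicate 4, 3.98%). Of all tested genes, quality weights called 47.3% in SVX and 58.7% in VAS against CONT, and without VAS replicates 2 and 3 the shares were 46.0% in SVX, 43.3% in SVX_VAS and 36.3% in VAS. Upper quartile scaling called 4689 genes higher and 2469 lower in SVX, against 3985 and 3178 with TMM. No share of all tested genes is given here for glmTreat, no filter, filterByExpr or only the groups compared, so the counts under these settings cannot be set against all genes. Of the counts of related lists in INT against CONT, 143 were within 1.5 times the main count and 28 were not. The causes were not tested.

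Of the logFC of single genes against CONT, 565 kept direction and call, 15 gained a call, 14 lost one and 14 changed sign. Pgr in SVX was -0.01 with quality weights. Pgr in SVX_VAS was 0.13 with upper quartile scaling, 0.0 with the replicate block and -0.09 to 0.08 with single libraries left out. Pgr in VAS was 0.12 with upper quartile scaling, -0.48 to 0.18 with single libraries left out and 0.41 without VAS replicates 2 and 3. Pgrmc1 in VAS was 0.04, -0.36 to 0.08 and 0.34 (FDR 0.00826) under the same 3 settings. Relative to the median of all genes, upper quartile scaling gave -0.0 for Pgr in SVX_VAS and in VAS and -0.08 for Pgrmc1 in VAS, with no change of sign. With quality weights, Pgr and Pgrmc1 in VAS were called lower (-0.7, FDR 0.000558, and -0.82, FDR 9.85e-06). Upper quartile scaling moved the median logFC of all genes from -0.01 to 0.12 in INT, from -0.01 to 0.16 in SVX, from -0.02 to 0.13 in SVX_VAS and from -0.07 to 0.13 in VAS, and raised the share of higher calls in VAS from 57.4% to 70.5%. Greb1 kept its call with this scaling in all 4 comparisons (logFC -2.4, -3.17, -3.52 and -2.29, or -2.52, -3.34, -3.64 and -2.42 relative to that median), and Esr1 in VAS fell just short of the minimum size (logFC -0.57, FDR 0.0389, and -0.7 relative to that median).

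Deviations from the group means had a median correlation of 0.05 over 36 pairs of samples with the same replicate number (15 over 0.1). Over 108 pairs with other numbers it was -0.03 (35 over 0.1), and 4 of 19 libraries were most like one of their own number. No pairing by number was seen, but same-number correlations ranged from -0.69 to 0.58, too wide to exclude one. With the replicate block, the counts called were 1, 1, 1 and 3 against CONT and 0 between mated groups. Depth limits Esr2, at 28 counts or fewer per library.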
